A study of Mus musculus with 8 samples.

Results

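Most of the 39 genes described here encode enzymes of glycolysis, the pentose phosphate pathway and the tricarboxylic acid (TCA) cycle, with some cytosolic isozymes. These 39 also include subunits (Pdha1, Pdhb) and a kinase (Pdk1) of the pyruvate dehydrogenase complex, the transcription factor subunit Hif1a and the itaconate-producing enzyme Irg1. They were taken by name from a given list, all 39 were found on 1 row each among the 11996 genes of the deposited table, and all 39 passed the filter on low values, which kept 11400 genes. RNA came from peritoneal macrophages of C57BL/6 mice, drawn into the cavity with thioglycolate and left to adhere to plastic for 24 h. The 4 groups were wild-type and Ptpn1-/- macrophages, each mock-treated or given IL-10 at 100 ng/ml for 4 h, with 2 samples per group in the labels. Ptpn1 encodes PTP1B, a tyrosine phosphatase that acts on JAK kinases and receptors, and IL-10 signals through JAK1, TYK2 and STAT3 to dampen inflammation. The comparisons ask how each genotype responded to IL-10 and how the genotypes differed. For the mice, the age, any pooling of animals and the construction of the knockout were not given in the sources used here, and no label says that the samples of a group came from separate animals.

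The table holds 1 value per gene and group, an authors' mean signal on a scale common to all 4 columns. No difference below could therefore be set against the spread between replicates, no p-value is given, and the depth behind a value is not known. Each comparison is expressed as a log2 ratio of signal with 26.7 units, or 1 ppm of the column sum, added to both values. Sizes of 1.5-fold and 2-fold were set as limits, and a lower limit of 1.25-fold was added after the values were seen. In bulk RNA, fewer cells of a type and less RNA per cell cannot be told apart.

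Glycolysis splits glucose into pyruvate, the pentose phosphate pathway draws glucose phosphate off to make NADPH and ribose, and the TCA cycle oxidises the acetyl groups that pyruvate dehydrogenase delivers. Macrophages activated by bacterial products are known to raise glycolysis through the HIF transcription factor and to divert the TCA intermediate cis-aconitate to itaconate. IL-10 is known to restrain that glycolytic shift in macrophages given lipopolysaccharide. No such stimulus is named in the labels of these samples.

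Facts of the whole table that bear on these genes are as follows. All values are multiples of 0.5, each column sums to 26705598 units, and 146 genes have a mean signal above 20000 units, where neighbouring ranks lie far apart. Ptpn1, the targeted gene, was listed at 4960.5 units in wild-type against 3836.5 in knockout cells under mock, so its signal was not absent from the knockout, and the deleted stretch is not given. Socs3, a direct STAT3 target, was listed at 380.5 units in untreated and 3924.5 in treated wild type, and 432 in untreated and 5021 in treated knockout cells. Of 7 macrophage marker symbols 6 were listed, and the missing Adgre1 is the current symbol of the listed Emr1. The signal of the 6 markers ran from Fcgr1 at 1453 to 3888 units to Cd68 at 226524 to 272612. They did not move together: under mock the knockout's log2 ratio was 0.79 for Fcgr1 and 0.27 for Cd68 but -0.38 for Itgam, -0.21 for Mertk and -0.14 for Csf1r, with Emr1 at 0.06, and Fcgr1 was also higher with IL-10 (0.80 in wild type). Markers of mesothelial cells and fibroblasts, all 9 of which were listed, summed to 32346 to 33733.5 units in wild type and 20230.5 to 20353.5 in the knockout. The 5 monocyte markers, all listed, summed to 991 units in untreated and 1443 in treated wild type, and 2249.5 in untreated and 2892 in treated knockout cells. Chi3l3 (574, 728.5, 1482 and 1641 units in that order) and Ccr2 (370.5, 639, 581.5 and 995) made up most of each sum. With IL-10, 4 of the 5 were higher in wild type and 5 in the knockout. Ly6c2 was lower in wild type, at 15 and 13.5 units. All 5 were higher in the knockout under both treatments. Resident macrophage markers (5 of 7 listed) summed to 3156.5 to 3669 units, a range that covers opposed members. Under mock Gata6 was at 700 units in wild-type against 408 in knockout cells and Cxcl13 at 944 against 1765, and of 4 kept markers 3 were lower in the knockout, with a median of -0.30. Neutrophil markers (3 of 7) summed to 852.5 to 1221.5 units. Mast cell markers (5 of 6) summed to 316 and 456.5 units in wild-type and knockout mock cells and to 337.5 and 525 with IL-10, and all 4 kept ones were higher in the knockout under both treatments. T cell markers (2 of 6) summed to 27 and 116 units in wild-type cells without and with IL-10 and to 41 and 156 in knockout cells. Of these 2, Lck was higher with IL-10 (wild type: 11.5 to 105, knockout: 10 to 128). Cd5 was lower (wild type: 15.5 to 11, knockout: 31 to 28). Those of B cells (3 of 5), dendritic cells (2 of 5), eosinophils (1 of 5) and erythroid cells (3 of 5) summed to between 9 and 155 units per list and group. No listed marker was at 0. Across the 11222 kept genes with an annotated length, the log2 ratios of 4 comparisons were lower for longer transcripts, as a description, with Spearman's rho of -0.36 for IL-10 in wild type, -0.13 for IL-10 in the knockout, -0.53 for the genotype difference under mock and -0.40 with IL-10. For the difference between the genotypes' responses rho was 0.26, the other way. Over the 39 genes rho was 0.04 for IL-10 in wild type and 0.24 in the knockout, so the fall with length was not seen among them there. For the genotype difference it was -0.46 under mock and -0.19 with IL-10, and for the difference between responses 0.38. Because of the trends over all kept genes, values after the running median over length was subtracted are given beside group counts.

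Most of the 39 genes were highly expressed. Their mean signal ran from 127 units (Pfkm) to 148530 (Pkm2), with a median of 4310 against 660 for all kept genes, and 35 of the 39 lay above that median gene. Levels of related genes were compared per kb of the longest annotated transcript. Hk3, the myeloid hexokinase isoform, took 83.8 to 87.3% of the hexokinase signal per kb across the 4 groups, Hk1 7.99 to 11% and Hk2 4.7 to 5.1%. Of the phosphofructokinase signal per kb, Pfkp, the platelet-type subunit, took 49.8 to 57.1%, Pfkl, the liver-type subunit, 38.1 to 44.9% and Pfkm, the muscle-type subunit, 4.3 to 6.3%. Aldoa took 99.5 to 99.6% of the aldolase signal per kb beside Aldoc. Cytosolic Idh1 took 72.1 to 80.2% of the signal per kb of Idh1 and mitochondrial Idh2 together. Whether the authors' values count whole transcripts is not given in the sources used here, and the undivided signal gave Hk3 78.1 to 82.4% and Pfkp 70.3 to 76.0%. The plot of signals by group shows the same ranges for each gene.

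**Figure D1:**
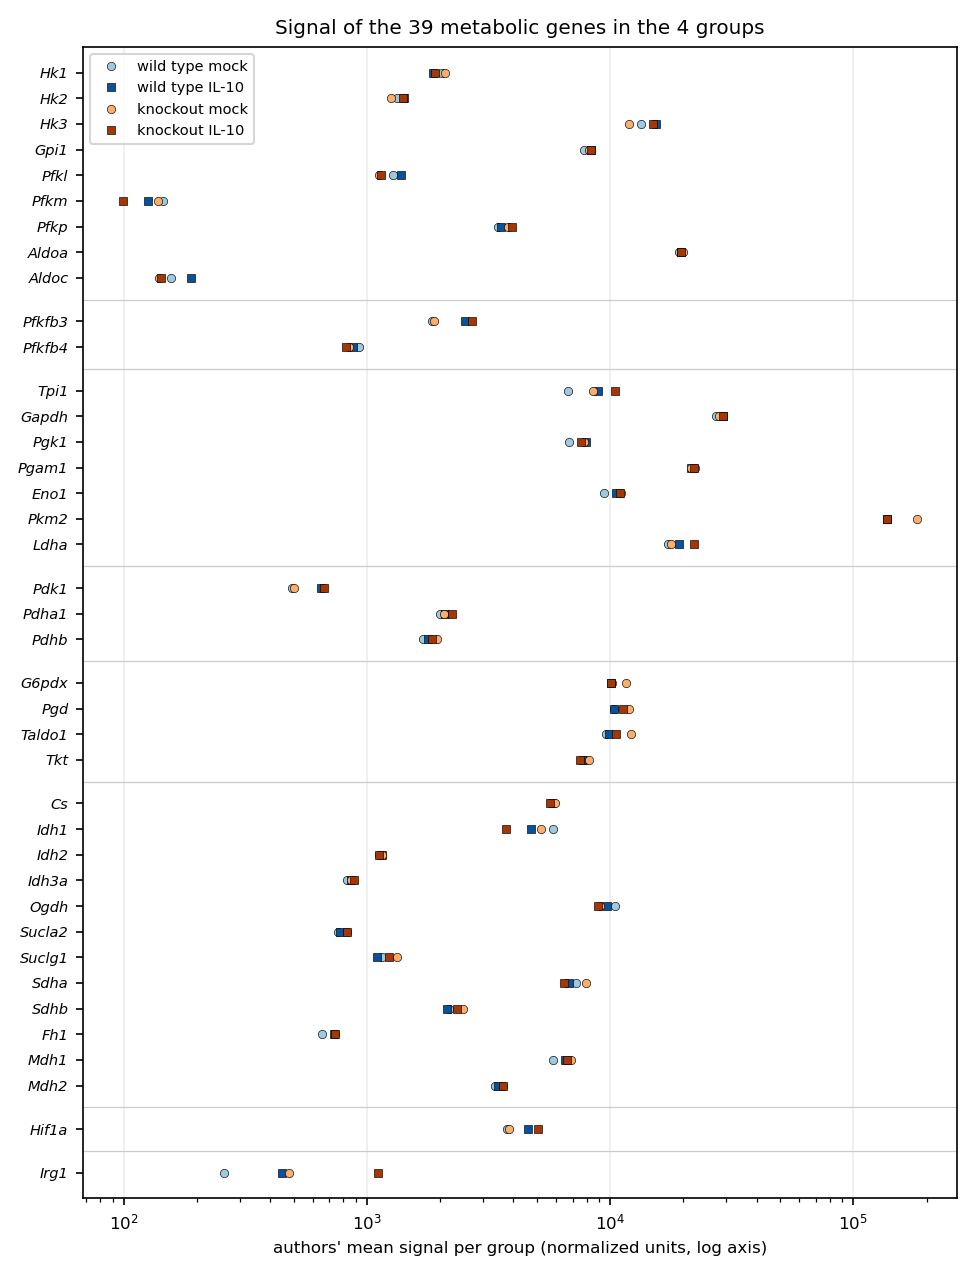
Authors' mean signal (normalized units, log axis) of each of the 39 genes in the 4 groups, ordered by role from hexokinases to Irg1, with circles for mock and squares for IL-10. The symbols of most genes lie close together, and those of Irg1 spread from 257.5 to 1114.5 units.

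Irg1 stood furthest apart among the 39 genes in both responses to IL-10. Irg1 (ENSMUSG00000022126; mm9 chromosome 14, 103446194 to 103455790, plus strand) encodes the mitochondrial enzyme that makes itaconate from cis-aconitate. It was listed at 257.5 units in wild-type mock cells, 447 in wild type with IL-10, 478 in knockout mock cells and 1114.5 in the knockout with IL-10. The value was lowest in untreated wild type, nearly equal in treated wild type and untreated knockout, and highest in the treated knockout. Its IL-10 log2 ratio was 0.74 (1.67-fold) for wild-type and 1.18 (2.26-fold) for knockout cells. At or above these values lay 0.982% of all kept genes in wild type and 0.667% in the knockout. The summed monocyte markers, mostly Chi3l3 and Ccr2, were also higher with IL-10 and in the knockout, though Ly6c2 was not higher with IL-10 in wild type. Their part in the Irg1 values was not tested.

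Pfkfb3, Pdk1 and Hif1a, which regulate the use of glucose and pyruvate, also had a larger signal in the treated cells of each genotype. Pfkfb3 (mm9 chromosome 2, 11401527 to 11423702, minus strand), which makes the sugar bisphosphate that activates phosphofructokinase, stood at 1852 units in untreated and 2521 in treated wild type, and 1892 in untreated and 2707 in treated knockout cells, log2 ratios of 0.44 and 0.51. Pdk1 (mm9 chromosome 2, 71711281 to 71741915, plus strand), a kinase that switches pyruvate dehydrogenase off, stood at 491 units in untreated and 646 in treated wild type, and 499 in untreated and 666.5 in treated knockout cells, log2 ratios of 0.38 and 0.40. Hif1a (mm9 chromosome 12, 75002362 to 75048517, plus strand), the oxygen-regulated subunit of HIF, stood at 3760 units in untreated and 4577.5 in treated wild type, and 3836.5 in untreated and 5067 in treated knockout cells, log2 ratios of 0.28 and 0.40. In each of these 3 genes both IL-10 columns lay above both mock columns, and the mock columns of the genotypes lay within 0.03 of each other in log2 ratio. That order of columns was not particular to them. Tpi1, Hk3, Ldha, Hk2, Gpi1, Gapdh and Pdha1 had it too, and its share among all kept genes was not counted. Pfkfb4, the paralogue of Pfkfb3, was not listed higher: it stood at 930 units in untreated and 876 in treated wild type, and 844 in untreated and 823 in treated knockout cells. Within the pair, Pfkfb3 thus took 59.1% of the signal per kb in wild-type mock cells and 67.6% with IL-10, and 62.0 and 70.5% in the knockout.

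**Figure D2:**
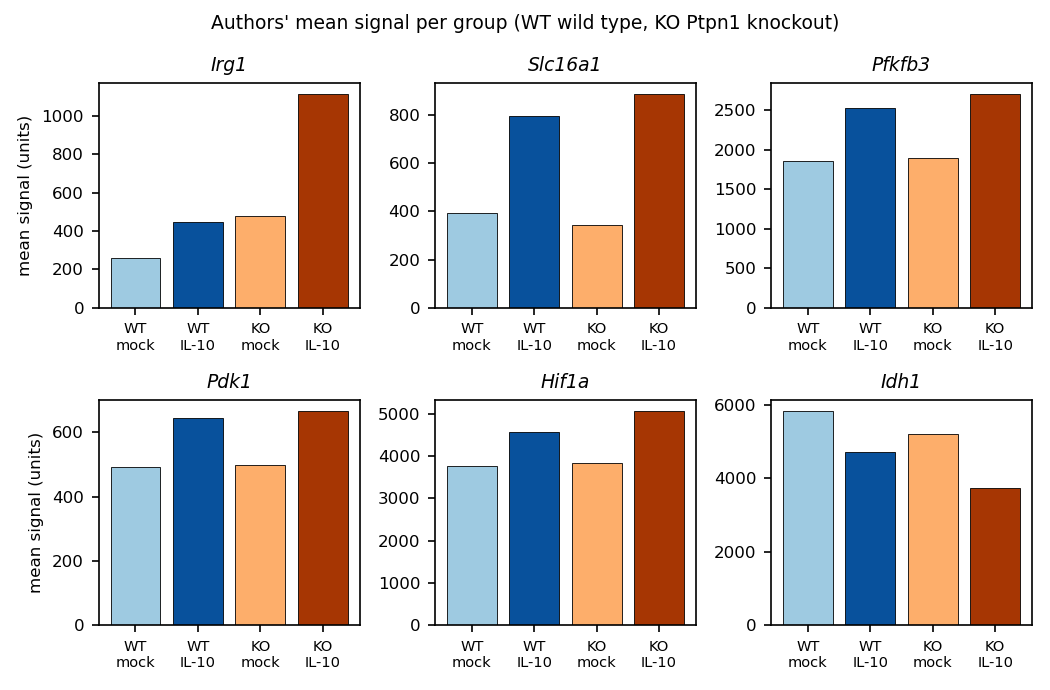
Authors' mean signal (units, bars from 0) of 6 genes in the 4 groups, 1 value per bar and no error bars since the table has 1 mean per group. Both IL-10 bars exceed both mock bars in Slc16a1, Pfkfb3, Pdk1 and Hif1a, Idh1 is lower with IL-10 in each genotype, and Irg1 reaches 1114.5 units in the treated knockout.

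The promoters of these 4 genes, and that of Idh1, which was lower with IL-10, are shown as examples. Other genes with IL-10 ratios of similar size, such as Tpi1 and Pfkm, are not shown. Each line gives the 250 bases before the most upstream RefSeq start (GRCm38.p6) on the gene's strand. Capitals mark the core letters of the hypoxia response element to which HIF binds, ACGTG or GCGTG, on either strand.
Irg1 (chr14:103046762-103047011, plus strand): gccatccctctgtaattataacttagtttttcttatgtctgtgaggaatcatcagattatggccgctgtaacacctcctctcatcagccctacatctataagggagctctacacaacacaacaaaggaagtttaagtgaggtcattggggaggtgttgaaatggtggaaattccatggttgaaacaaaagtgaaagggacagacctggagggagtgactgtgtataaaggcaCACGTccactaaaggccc
Pfkfb3 (chr2:11553930-11554179, minus strand): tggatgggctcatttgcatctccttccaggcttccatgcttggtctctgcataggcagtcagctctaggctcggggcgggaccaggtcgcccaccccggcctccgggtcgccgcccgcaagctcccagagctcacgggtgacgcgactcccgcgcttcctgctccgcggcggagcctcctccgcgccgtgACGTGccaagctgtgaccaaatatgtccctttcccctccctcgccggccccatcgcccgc
Pdk1 (chr2:71872974-71873223, plus strand): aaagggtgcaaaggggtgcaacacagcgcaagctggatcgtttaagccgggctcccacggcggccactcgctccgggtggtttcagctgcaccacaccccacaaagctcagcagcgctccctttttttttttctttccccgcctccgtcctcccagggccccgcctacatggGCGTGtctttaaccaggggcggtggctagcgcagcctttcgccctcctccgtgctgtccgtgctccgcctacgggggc
Hif1a (chr12:73907617-73907866, plus strand): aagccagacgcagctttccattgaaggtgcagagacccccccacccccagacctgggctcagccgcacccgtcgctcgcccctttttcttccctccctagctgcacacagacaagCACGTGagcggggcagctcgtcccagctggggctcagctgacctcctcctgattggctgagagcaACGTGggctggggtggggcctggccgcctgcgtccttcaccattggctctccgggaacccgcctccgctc
Idh1 (chr1:65186480-65186729, minus strand): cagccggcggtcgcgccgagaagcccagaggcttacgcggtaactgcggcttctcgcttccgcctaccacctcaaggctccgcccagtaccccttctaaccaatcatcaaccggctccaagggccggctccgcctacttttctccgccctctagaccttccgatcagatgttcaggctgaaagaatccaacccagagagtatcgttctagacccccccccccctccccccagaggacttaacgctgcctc
Irg1 stands under its current symbol Acod1 in RefSeq. The Hif1a window holds 3 matches, of which 2 overlap in the palindrome CACGTG, the windows of Irg1, Pfkfb3 and Pdk1 hold 1 each, and that of Idh1 holds none. Of the 38 genes with a window, 30 (78.9%) held at least 1 match, against 58% of 8945 windows of kept genes and 38.6% of all 27025 windows. A match is 5 letters that chance gives often, and CG pairs numbered 15 per window in the median of these genes, 16 in kept genes and 6 in all windows. The STAT palindrome TTCNNNGAA lay in 0 of the 38 windows, against 5.84% of kept genes' windows, and the interferon-stimulated response element in 0 against 2.73%. These letters are descriptions of a short window and say nothing of binding elsewhere.

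None of the 16 glycolytic enzymes was 1.5-fold higher with IL-10 in either genotype, as 1.54% of all kept genes were for wild-type and 2.32% for knockout cells. In wild type, 12 of the 16 were above 0 and 3 below (49.6 and 49.5% of all genes), with a median log2 ratio of 0.10, or 11 and 5 with the length trend subtracted. In the knockout, where the median was 0.03, 10 were above 0 and 6 below (45.2 and 53.8% of all genes). The counts were again 10 and 6 with the length trend subtracted, and 12 and 4 with the signal trend subtracted. Tpi1, triose phosphate isomerase, had the highest ratio of the 16 in wild type: it stood at 6723 and 8942 units without and with IL-10 (log2 ratio 0.41) and at 8512 and 10453.5 in the knockout (0.30). Hk3 stood at 13381 units in untreated and 15417.5 in treated wild type, and 11997.5 in untreated and 15053 in treated knockout cells, with log2 ratios of 0.20 and 0.33. Ldha, which reduces pyruvate to lactate, stood at 17370 units in untreated and 19181.5 in treated wild type, and 17769.5 in untreated and 22163 in treated knockout cells, ratios of 0.14 and 0.32. The IL-10 value of all 3 genes exceeded the mock value in each genotype.

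Pgk1 and Eno1 had IL-10 ratios above 0 in wild type and below 0 in the knockout. Pgk1, phosphoglycerate kinase, stood at 6751 and 7972 units in wild type but at 7768.5 and 7594.5 in the knockout. Eno1, enolase, stood at 9411.5 units in untreated and 10571 in treated wild type, and 11036.5 in untreated and 10928 in treated knockout cells. Of the low paralogues, Pfkm stood at 144.5 units in untreated and 126 in treated wild type, and 138 in untreated and 99 in treated knockout cells (-0.16 and -0.39), and Aldoc at 156 units in untreated and 189 in treated wild type, and 139.5 in untreated and 142 in treated knockout cells. Hk1, whose wild-type ratio was the third lowest of the 39 genes, stood at 2037 units in untreated and 1875 in treated wild type, and 2100 in untreated and 1904 in treated knockout cells (-0.12 and -0.14). Hk2, Gpi1, Pfkl, Pfkp, Aldoa, Gapdh and Pgam1 had IL-10 log2 ratios between -0.06 and 0.16 in both genotypes. Gapdh, often used as a reference gene, was listed at 27358.5 units in untreated and 29004 in treated wild type, and 27966.5 in untreated and 29004 in treated knockout cells. Pkm2, pyruvate kinase, was listed at the same 136984 units in 3 columns and at 183168 in the knockout mock column. The last is rank 17 of 11996 against rank 22 in the wild-type mock column, and its IL-10 ratio of -0.42 in the knockout is a step from rank 17 to rank 21. Genes such as Gapdh, Pgk1, Pgam1, Tpi1, Ldha, Aldoa and Eno1 have processed pseudogenes in the mouse genome, and how reads shared with them were counted is not given in the sources used here.

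**Figure D3:**
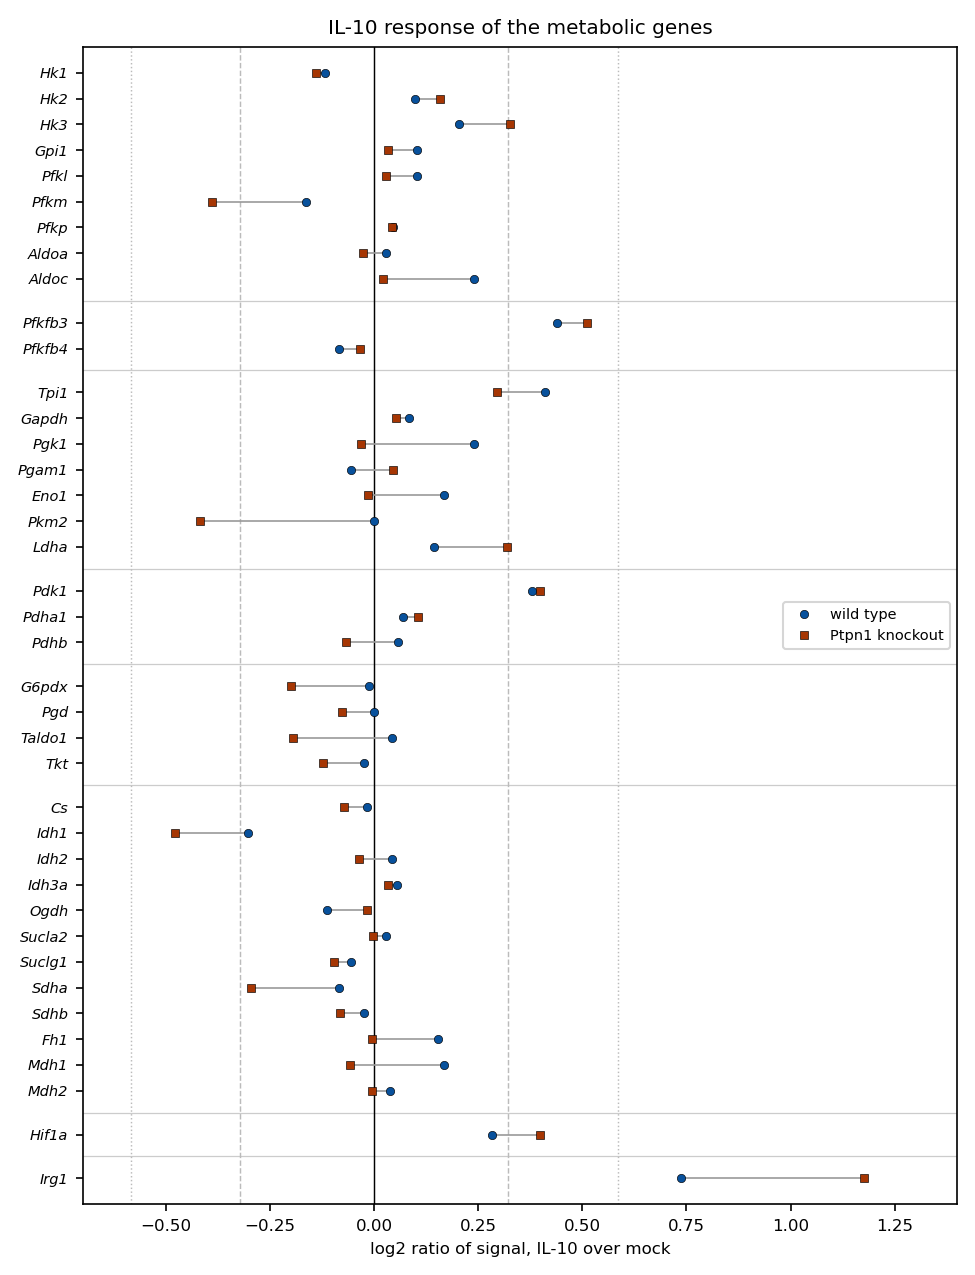
Log2 ratio of signal, IL-10 over mock, for each of the 39 genes in wild type (circles) and in the knockout (squares). Dashed lines stand at 1.25-fold and dotted lines at 1.5-fold. Irg1 lies past 1.5-fold in both genotypes, and Pfkfb3 and Pdk1 lie past 1.25-fold in both.

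Pentose phosphate genes had IL-10 log2 ratios close to 0 in wild type and below 0 in the knockout. G6pdx, the NADPH-producing entry enzyme, stood at 10153.5 units in untreated and 10064 in treated wild type, and 11566 in untreated and 10064 in treated knockout cells. Pgd, the next NADPH-producing enzyme, stood at 10336 and 10334.5 units in that order in wild type, then 11945.5 and 11310. Taldo1, transaldolase, stood at 9599 and 9879.5 units in wild type, then 12150 and 10600.5, and Tkt, transketolase, at 7867 and 7738.5, then 8170 and 7503. The median log2 ratio of the 4 genes was -0.01 in wild type and -0.16 in the knockout, where all 4 were below 0, also with the length trend subtracted. In all 4 the knockout mock column held the highest value.

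The group called TCA genes below holds TCA enzymes and their isozymes, including cytosolic Idh1 and Mdh1. Within this group, the cytosolic isozyme Idh1 was listed lower with IL-10 in both genotypes. Idh1 (mm9 chromosome 1, 65205190 to 65225755, minus strand), the cytosolic enzyme that makes NADPH from isocitrate, stood at 5835 units in untreated and 4721.5 in treated wild type, and 5203 in untreated and 3727.5 in treated knockout cells, log2 ratios of -0.30 and -0.48. Both IL-10 values of Idh1 lay below both mock values, as they also did in Sdha, Cs, Hk1, Pfkm, Tkt and G6pdx. Idh1 had the lowest ratio of the 39 genes in each genotype. In wild type 4.97% of all kept genes lay at or below its ratio, and in the knockout 1.49%. Sdha, the flavoprotein subunit of succinate dehydrogenase, stood at 7211.5 units in untreated and 6793.5 in treated wild type, and 7942.5 in untreated and 6466 in treated knockout cells (-0.09 and -0.30).

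The remaining 10 TCA genes, Cs, Idh2, Idh3a, Ogdh, Sucla2, Suclg1, Sdhb, Fh1, Mdh1 and Mdh2, had IL-10 log2 ratios between -0.11 and 0.17 in both genotypes. Citrate synthase (Cs), for example, stood at 5808 units in untreated and 5738 in treated wild type, and 5951 in untreated and 5659 in treated knockout cells. Over all 12 TCA genes, 6 were above 0 and 6 below in wild type, or 3 and 9 with the length trend subtracted. In the knockout 1 was above 0 and 11 below, against 45.2 and 53.8% of all genes. That count moved with the scaling, to 3 and 9 with the length trend and 5 and 7 with the signal trend subtracted. Pdha1 and Pdhb, subunits of the pyruvate dehydrogenase enzyme that Pdk1 inhibits, had IL-10 ratios of 0.07 and 0.06 for wild-type and 0.11 and -0.07 for knockout cells.

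Counted over all 39 genes, Irg1 was the 1 gene at least 1.5-fold higher with IL-10 in wild type, where 1.54% of all kept genes were, and none was 1.5-fold lower, against 0.412%. In the knockout Irg1 was again the 1 gene at least 1.5-fold higher, against 2.32% of all genes, and none was 1.5-fold lower, against 0.807%. Irg1 in the knockout was also past 2-fold, as were 0.877% of genes, and none was 2-fold lower (0.0175%). In wild type none was 2-fold higher (0.465%) or lower (0.0175%). At 1.25-fold, 4 genes were higher in wild type (Irg1, Pfkfb3, Tpi1 and Pdk1; 4.65% of all genes) and none lower (4.24%). In the knockout 5 were higher (Irg1, Pfkfb3, Pdk1, Hif1a and Hk3; 5.95%) and 3 lower (Idh1, Pkm2 and Pfkm; 4.46%). At that limit 31 of the 39 lay within 1.25-fold in the knockout, against 89.6% of all genes, and 35 in wild type, against 91.1%. The median log2 ratio of the 39 was 0.05 in wild type against 0.00 for all kept genes, and -0.01 in the knockout against -0.01. In wild type 25 were above 0 and 13 below (49.6 and 49.5% of all genes), and in the knockout 16 and 23 (45.2 and 53.8%). With the length trend subtracted 20 were above 0 and 18 below in wild type, while 18 were above 0 and 21 below in the knockout.

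Under mock treatment more of the 39 genes were listed higher than lower in the knockout. Irg1 was again first, at 257.5 units in wild-type against 478 in knockout cells, a log2 ratio of 0.83 (1.78-fold), and was the 1 gene at least 1.5-fold higher, against 1.43% of all kept genes. None was 1.5-fold lower, against 1.4%, and none 2-fold higher (0.325%) or lower (0.105%). At 1.25-fold, Irg1, Pkm2, Tpi1 and Taldo1 were higher (6.92% of all genes) and none lower (7.35%). Tpi1 stood at 6723 units in wild-type against 8512 in knockout cells (0.34) and Taldo1 at 9599 and 12150 (0.34). With the length trend subtracted these ratios were 0.19 and 0.16, both under 1.25-fold, that of Irg1 was 0.75, and that of Pfkp went from 0.14 to 0.36, past 1.25-fold. Of the 39, 30 were above 0 and 9 below, against 53.5 and 45.8% of all genes, with a median of 0.06 against 0.02. With the length trend subtracted 24 were above 0 and 15 below.

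By role, the 4 pentose phosphate genes were all above 0 in the mock-treated knockout, with a median of 0.20, or 0.14 and again all 4 with the length trend subtracted. Of the 7 lower glycolytic genes 6 were above 0, with a median of 0.20, or 5 with a median of 0.08. The 9 upper glycolytic genes leaned the other way, with 4 above 0 and 5 below and a median of -0.06. With the length trend subtracted these counts stayed the same and the median was -0.10. Of the 12 TCA genes 10 were above 0, with a median of 0.12. With the trend subtracted 6 were above 0 and 6 below, so that no direction of this group held under both scalings. The TCA genes above 0 included Mdh1, cytosolic malate dehydrogenase (5814 and 6914 units), and Suclg1, a subunit of succinyl-CoA ligase (1147.5 and 1325). The lowest ratios of the 39 were those of Ogdh, oxoglutarate dehydrogenase, at 10491 and 9062 units (-0.21), Pfkl at 1280 and 1119 (-0.19) and Idh1 at 5835 and 5203 (-0.16). The part of the lower fibroblast and mesothelial markers and the higher monocyte markers of the knockout in these differences was not tested.

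**Figure D4:**
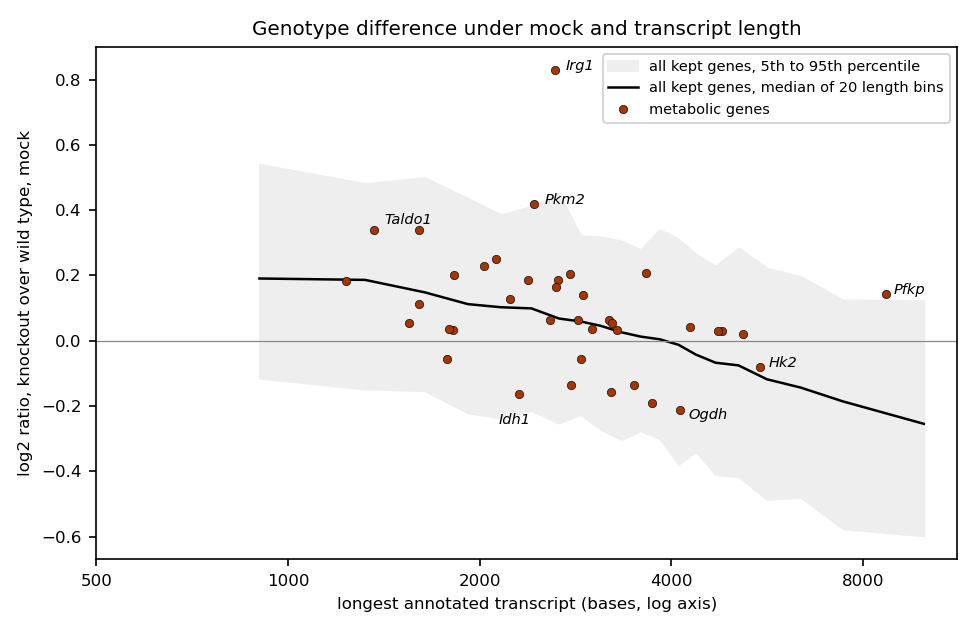
Log2 ratio of signal, knockout over wild type under mock, against the longest annotated transcript (bases, log axis), for the 39 genes (points) and for all kept genes (line, median of 20 length bins; shading, 5th to 95th percentile). Irg1 lies above the shading at 0.83, and Spearman's rho with length was -0.46 over the 39 genes, against -0.53 over all kept genes with a length.

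With IL-10 the genotypes lay within 10% of each other in 29 of the 39 genes, against 20 under mock, and Irg1 differed more. All kept genes did the same, with 58.6% within 10% against 48.4%. Irg1 stood at 447 units in wild-type against 1114.5 in knockout cells, a log2 ratio of 1.27 (2.41-fold), which 0.316% of all kept genes reached. It was the 1 gene at least 1.5-fold higher, against 1.8% of all genes, and also past 2-fold, against 0.596%. None was 1.5-fold lower, against 0.991%, or 2-fold lower, against 0.0789%. At 1.25-fold no further gene was higher (5.57% of all genes) and 2 were lower (5.61%): Aldoc at 189 units in wild-type against 142 in knockout cells (-0.35), and Idh1 at 4721.5 and 3727.5 (-0.34). Next to them stood Pfkm at 126 and 99 units (-0.28) and Pfkl at 1377 and 1142 (-0.26). Upward, Tpi1 stood at 8942 and 10453.5 units (0.22) and Ldha at 19181.5 and 22163 (0.21). G6pdx, Gapdh, Aldoa and Pkm2 were listed at identical values in both genotypes, though at different ranks. In wild type and knockout G6pdx stood at ranks 376 and 371, Gapdh at 87 and 84, Aldoa at 144 and 151, and Pkm2 at 22 and 21. Of the 39, 21 were above 0 and 14 below. Their median was 0.02 against 0.01 for all genes, of which 51.8% were above 0 and 47.4% below, and with the length trend subtracted 16 were above 0 and 23 below.

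**Figure D5:**
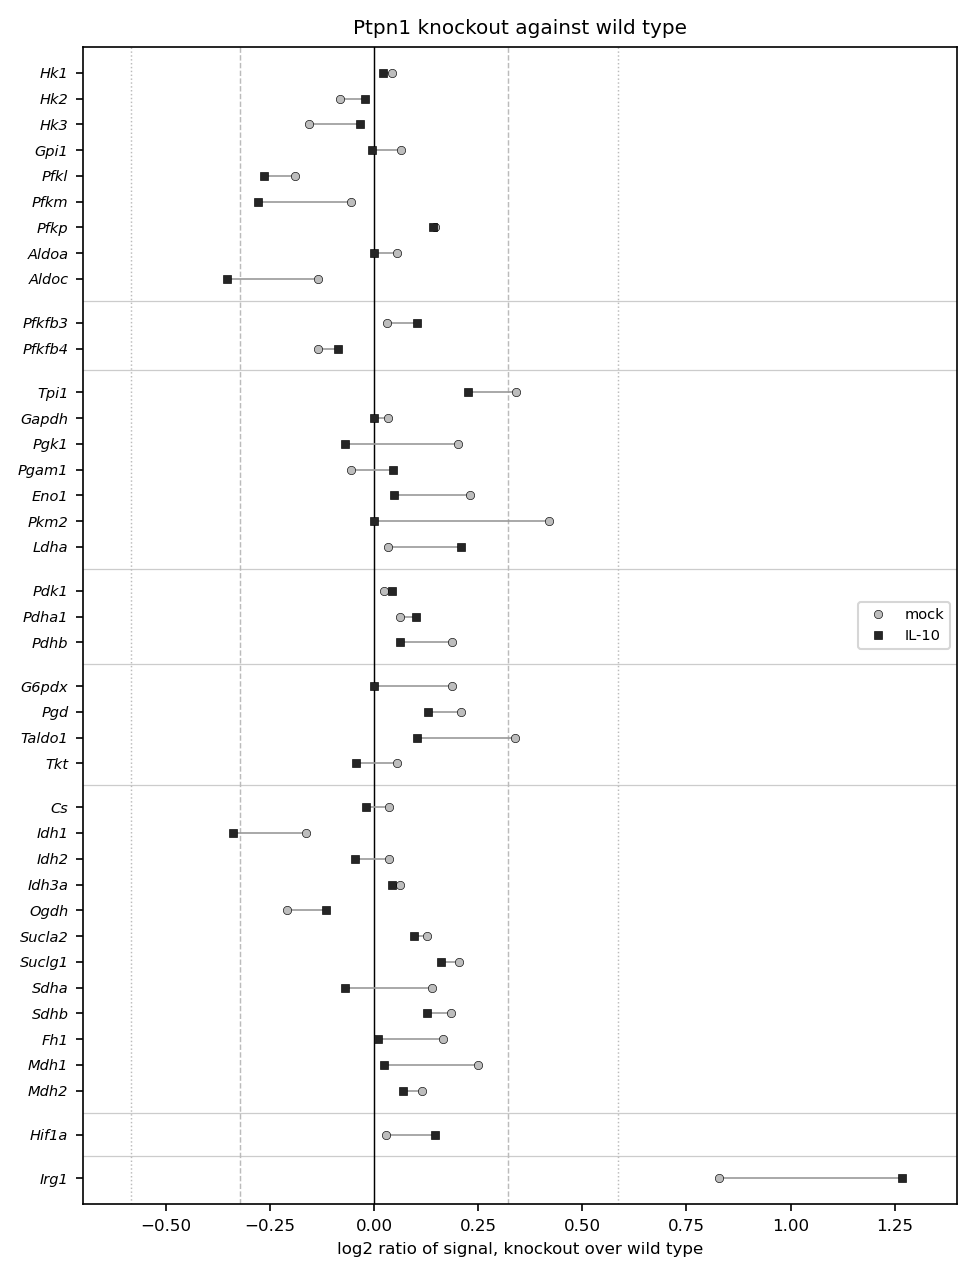
Log2 ratio of signal, knockout over wild type, for each of the 39 genes under mock (circles) and with IL-10 (squares). Dashed lines stand at 1.25-fold and dotted lines at 1.5-fold. Irg1 lies past 1.5-fold under both treatments. Below 0 under both lie 8 genes, Hk2, Hk3, Pfkl, Pfkm, Aldoc, Pfkfb4, Idh1 and Ogdh, against 34.5% of all kept genes.

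The difference between the genotypes' responses asks whether the cytokine's effect on these genes depended on Ptpn1. Irg1 had the highest value of the 39, 0.44, since its IL-10 log2 ratio was 0.74 for wild-type and 1.18 for knockout cells, and 1.45% of all kept genes reached that difference. Ldha followed with 0.18 and Hk3 with 0.12. The lowest were Pkm2 (-0.42), which rests on few ranks, Pgk1 (-0.27) and Taldo1 (-0.24). No gene differed by 1.5-fold in either direction, against 0.5% of all genes upward and 0.263% downward, or by 2-fold, against 0.0965 and 0.0351%. At 1.25-fold Irg1 differed upward (3.59% of all genes) and Pkm2 downward (2.96%). Of the 39, 11 were above 0 and 28 below, against 48.7 and 51.2% of all genes, or 15 and 24 with the length trend subtracted. All 4 pentose phosphate genes were below 0. Their median was -0.14 (-0.13 after subtraction of the length trend). This was not particular to them: 11 of the 12 TCA genes, 7 of the 9 upper and 5 of the 7 lower glycolytic genes were below 0. With the length trend subtracted these counts were 7, 6 and 5. Of the 8 other kept pentose phosphate enzymes, outside the 39 genes, 4 were above 0 and 4 below. In Pkm2 the knockout mock column alone departed from the other 3 values, and in G6pdx, listed at 10064 units with IL-10 in each genotype, it stood highest. The knockout mock column enters the knockout's IL-10 response, the mock genotype difference and this difference alike, so these 3 comparisons are not separate evidence.

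Other genes of the same pathways were taken from 8 further lists, of which 102 genes were kept, and the shares of all genes past 1.5-fold are those given above for each comparison (1.54 and 0.412% higher and lower with IL-10 in wild type, 2.32 and 0.807% in the knockout). Slc16a1, the lactate and pyruvate transporter MCT1, was the 1 of 14 transporter genes past 1.5-fold with IL-10. It stood at 392.5 units in untreated and 795 in treated wild type, and 342 in untreated and 887.5 in treated knockout cells, log2 ratios of 0.97 and 1.31. The genotypes differed by -0.19 under mock and 0.15 with IL-10. Slc2a1, the glucose transporter GLUT1, stood at 2666.5 units in untreated and 3104 in treated wild type, and 2844 in untreated and 3579 in treated knockout cells (0.22 and 0.33), and Slc16a3, the lactate exporter MCT4, at 985 units in untreated and 1005 in treated wild type, and 1189 in untreated and 964.5 in treated knockout cells. Of the HIF pathway and its targets 20 of 22 genes were listed, and their median IL-10 ratio was 0.02 for wild-type and -0.05 for knockout cells. Ndrg1, a hypoxia-induced gene, was the 1 of the 20 past 1.5-fold with IL-10, in the knockout, at 1542 and 2430 units (0.65), and stood at 1400.5 and 2037.5 in wild type (0.53). Vegfa, another HIF target, went the other way, at 1448 units in untreated and 1068 in treated wild type, and 1136 in untreated and 817.5 in treated knockout cells (-0.43 and -0.46).

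Epas1, the HIF2A subunit gene, was lower in the knockout past 1.5-fold under both treatments, as were 1.4% of all genes under mock and 0.991% with IL-10. It stood at 6726 units in wild-type against 3855.5 in knockout cells under mock (-0.80) and at 6796 and 4261 with IL-10 (-0.67). Egln3, an oxygen-sensing prolyl hydroxylase that HIF induces, stood at 199 and 131 units under mock (-0.52) and at 201 and 124 with IL-10 (-0.60). Fibroblast and mesothelial markers were lower in the knockout as well, in 9 of 9 genes under mock and 8 of 9 with IL-10, and their part in the Epas1 value was not tested. No gene of the lists of other glycolytic enzymes (11 of 19 listed), other pyruvate dehydrogenase genes (8 of 9), other pentose phosphate enzymes (8 of 9) or other TCA subunits (9 of 9), of reactions that feed or drain the cycle (18 of 18) or of other metabolic regulators (14 of 16) reached 1.5-fold in any of the 5 comparisons. Of the other pentose phosphate enzymes 6 of 8 were above 0 in the mock-treated knockout (53.5% of all genes), with a median of 0.08. With the length trend subtracted 4 of 8 were, with a median of 0.04. Of the other TCA subunits 7 of 9 were above 0 in the mock-treated knockout (53.5% of all genes), with a median of 0.16, or 6 of 9 and 0.07 with the length trend subtracted. With IL-10 in wild type 8 of 9 were above 0 (49.6% of all genes), with a median of 0.09, or 8 of 9 and 0.06.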

How the data were processed

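RNA of 8 samples in 4 groups was sequenced. The submitters' processing notes name RSEM, Bowtie and mm9 but no version. What each did, the normalization and any filter were not given in the sources used here. In the table, the authors deposited 1 normalized signal value per gene and group, named as CPM although each column sums to 26705598 units. The 4 columns were matched to groups by name, and values are given as the authors' means with no SD. That a value is a mean of 2 samples is inferred from the single column per group and the steps of 0.5, and no header states it. The planned fits, which need values per library, were not run.

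Log2 ratios were computed over the 11400 genes with a mean of at least 1 ppm after 1 ppm of the column sum (26.7 units) was added (Python 3.11.15, pandas 2.3.3). A running median over 501 genes gave the trends over length (longest transcript, GENCODE M21, used for lengths only) and over signal. The calculation was tested on simulated data. Coordinates are those of the deposited rows (mm9) and may not span whole genes. Promoters are RefSeq's (GRCm38.p6), matched by symbol for 38 of the 39 genes, with no entry for Idh3a.

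Every gene of the list is named. Described in full are the 3 highest and 3 lowest in each of 5 comparisons and any past 1.5-fold, and, of 8 further pathway lists, up to 3 genes per comparison past 1.5-fold. Slc2a1, Slc16a3, Vegfa and single cell type markers were picked after their values were seen. The genes, lists and markers were chosen with earlier results of these data known.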

Additional observations from a re-analysis of the deposited data

How the results depend on the processing

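Each comparison was recomputed with pseudocounts of 0.25 and 4 ppm, no filter, a filter at 5 ppm (which drops Pfkm), the length or the signal trend subtracted, and without genes above 20000 units (which drops Gapdh, Pgam1 and Pkm2). The counts of genes at least 1.5-fold and 2-fold higher or lower among the 39 stayed the same under these 7 alternatives in all 5 comparisons. The median log2 ratio of the 39 ran from 0.00 to 0.05 for IL-10 in wild type, from -0.02 to 0.02 in the knockout, from 0.03 to 0.06 for the genotype difference under mock, from -0.02 to 0.02 with IL-10, and from -0.06 to -0.03 for the difference between responses, so its sign for the knockout's response and for the treated genotypes is not settled. The number of genes above 0 ran from 20 to 25, 14 to 22, 24 to 30, 16 to 22 and 10 to 15 in the same order. The 3 highest and 3 lowest genes of each comparison were recomputed singly. Of these, Irg1, Pfkm and Tpi1 moved by more than the median size of all genes' ratios. Pfkm went to -0.25 for IL-10 in the knockout with 4 ppm. Tpi1 went to 0.19 for the mock genotype difference with the length trend subtracted. With 4 ppm Irg1 went to 0.60 for IL-10 in wild type and 1.06 in the knockout. Between genotypes Irg1 went to 0.68 under mock and 1.14 with IL-10. Of the other genes, Pfkp, Taldo1, Sdhb, Mdh2 and Aldoa moved by more than that median under the length trend in the mock genotype difference. Aldoa went from 0.06 to -0.10. At 1.25-fold, with the length trend subtracted Idh1 became the 1 gene lower with IL-10 in wild type, and 3 in place of 4 were higher in the mock-treated knockout, where Pfkp replaced Tpi1 and Taldo1. That count was also 3 with the signal trend subtracted or without genes above 20000 units. In the knockout's IL-10 response, 7 in place of 5 were higher with the signal trend subtracted, and 2 in place of 3 were lower with 4 ppm, with the filter at 5 ppm or without genes above 20000 units. Between treated genotypes 3 were lower with 0.25 ppm and 1 with 4 ppm, in place of 2, and none differed downward between responses without genes above 20000 units, in place of 1. Isozyme shares moved with the length used: averaged over groups, Hk3 took 80.6% undivided and 89.1% per kb of all exons, and Pfkp 73.1% undivided. No paired analysis was possible because the table holds 1 mean per group, and leaving out single replicates was not possible for the same reason. Depth is unknown, so the counting error of low signals such as those of Pfkm and Aldoc cannot be given here.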

Other observations

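Of 14 kept regulators of glucose and mitochondrial metabolism outside the 39 genes, none was at least 1.25-fold higher with IL-10 in either genotype and 2 were at least 1.25-fold lower in each, against 4.24% of all genes in wild type and 4.46% in the knockout. With the length trend subtracted none was lower in wild type and 1 in the knockout. The genes named here were picked after their values were seen. Myc, a transcription factor that drives glycolytic genes, was listed at 596 units in untreated and 500 in treated wild type, and 612.5 in untreated and 466.5 in treated knockout cells, log2 ratios of -0.24 and -0.37, of which the second passed that limit. Rptor, the scaffold of the mTORC1 kinase complex, stood at 1518 units in untreated and 1205 in treated wild type, and 1237 in untreated and 1042.5 in treated knockout cells (-0.33, past the limit, and -0.24). Ppargc1a, a coactivator of mitochondrial genes, had a low signal, at 32 units in untreated and 19 in treated wild type, and 35 in untreated and 22 in treated knockout cells (-0.36 and -0.34). Of the 18 genes whose reactions feed or drain the TCA cycle, Gpt2, the mitochondrial alanine transaminase, was the 1 past 1.25-fold with IL-10, at 441.5 and 594.5 units in the knockout (0.41) and 451 and 545 in wild type (0.26). Among targets of HIF, Bnip3, which marks mitochondria for removal, stood at 475 units in wild-type against 625 in knockout cells under mock (0.38), and at 577.5 and 611.5 with IL-10.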
